A study of Homo sapiens with 8 samples.

Results

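HEK293T lines carrying EZH2 A677G were set against lines carrying EZH2 H689A/F667I, without EZH2 WT as a reference, to describe the chromatin that was open in only 1 of the 2 lines. The values are ATAC-seq peak lists, in which a peak is a stretch cut by the Tn5 transposase more often than its surroundings, and they cover 4 of the 8 libraries of the series, 2 per line. Peaks on chromosomes 1 to 22 with at least 1 bp in common were joined into regions. A region with a peak in both A677G libraries and in neither H689A/F667I library was called A677G-only, and the reverse H689A/F667I-only. The 4 lists gave 70384 regions, of which 783 were A677G-only, 3073 were H689A/F667I-only and 26072 were open in all 4 libraries. The classes were formed again from the top 38000 peaks of each file by −log10 p, which gave 1171 and 1735 of 55100 regions.

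Both groups are untreated cultures of HEK293T, a human embryonic kidney line, infected with a lentivirus that carries the mutant EZH2 and selected with blasticidin. The study's methods describe 2 independent biological replicates per line, and the selection was said to give monoclonal populations, so each line stands for 1 selected population of cells that also have their own EZH2 gene. In the study's terms A677G is a gain-of-function mutant, and the double change H689A/F667I removes function. The remaining libraries, 2 of EZH2 WT and 2 of EZH2 Y641F, another gain-of-function mutant, were not used to form the classes and served as a separate readout of them.

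EZH2 is the catalytic subunit of Polycomb repressive complex 2 and adds methyl groups to lysine 27 of histone H3. Trimethylated H3K27 marks silent developmental genes and is read by Polycomb repressive complex 1, which compacts chromatin. The A677G enzyme is known to make more of the trimethylated form, while changes in the SET domain that disable catalysis leave the mark to the cell's remaining EZH2 and to its paralogue EZH1.

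Of the 29 class regions with the strongest peaks that are described by name below, 4 are printed here because they show what a class region looks like and overlap no annotated exon. TBCA (promoter, chr5:77869214-77869459) and KCNAB1 (intron, chr3:156448383-156448622) are A677G-only. TMEM63A (promoter, chr1:225877728-225877961) and ENAH (intergenic, central 300 bp, chr1:225694152-225694451) are H689A/F667I-only. The letters are the forward strand of GRCh38, and capitals mark matches on either strand to 10 short motifs that are listed with their shares further on.
TBCA: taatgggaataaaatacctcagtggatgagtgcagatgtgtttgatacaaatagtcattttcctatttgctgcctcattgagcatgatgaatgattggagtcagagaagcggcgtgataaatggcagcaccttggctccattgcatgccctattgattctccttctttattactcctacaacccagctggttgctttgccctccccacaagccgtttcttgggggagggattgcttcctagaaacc
KCNAB1: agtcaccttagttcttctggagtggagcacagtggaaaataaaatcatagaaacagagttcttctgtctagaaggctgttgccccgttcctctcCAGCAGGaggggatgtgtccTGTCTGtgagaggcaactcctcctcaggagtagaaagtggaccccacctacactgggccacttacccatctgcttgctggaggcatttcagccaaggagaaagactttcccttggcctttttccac
TMEM63A: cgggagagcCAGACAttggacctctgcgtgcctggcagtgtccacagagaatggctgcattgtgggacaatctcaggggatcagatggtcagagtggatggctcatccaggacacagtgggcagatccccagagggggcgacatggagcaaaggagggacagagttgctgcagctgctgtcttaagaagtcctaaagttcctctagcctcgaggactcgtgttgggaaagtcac
ENAH: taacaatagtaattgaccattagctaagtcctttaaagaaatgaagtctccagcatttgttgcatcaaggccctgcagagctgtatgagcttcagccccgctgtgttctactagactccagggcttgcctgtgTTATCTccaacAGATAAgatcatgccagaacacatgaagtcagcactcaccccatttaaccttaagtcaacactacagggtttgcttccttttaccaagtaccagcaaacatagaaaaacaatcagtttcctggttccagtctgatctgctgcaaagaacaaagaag
The ENAH region held 2 matches to the GATA motif. KCNAB1 and TMEM63A, in opposite classes, each held 1 match to the SMAD motif, KCNAB1 also held 1 to the ZIC motif, and the TBCA stretch held none of the 10. GC content ran from 43.0% in ENAH to 56.4% in TMEM63A.

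The number of peaks is the only measure of yield in these lists, since read depth is unknown. On chromosomes 1 to 22 the A677G libraries had 36744 and 44754 peaks and the H689A/F667I libraries 46317 and 47164. Mean peak number was 40749 ± 5664 (SD, n = 2) for the A677G line, compared to 46740.5 ± 599 (SD, n = 2) for the H689A/F667I line, a log2 ratio of -0.20 (exact two-sided permutation test p = 0.333). Covered length was 23.9 ± 3.08 Mb (SD, n = 2) against 29.0 ± 0.454 Mb (SD, n = 2), a log2 ratio of -0.29 (exact two-sided permutation test p = 0.333). Both A677G values lay below both H689A/F667I values, and 0.333 is the smallest p that 2 against 2 libraries can give. The 7 promoters of HEK293T markers reported here (PAX2, LHX1, EYA1, NEFL, NEFM, VIM and GATA3) were all open in all 4 libraries. Of 8 promoters of blood, liver, muscle, islet and basal epithelial genes, 7 were closed in all 4, and that of MYOD1, the myogenic regulator, was open in all 4. The promoter of EZH2 itself was open in each library, with a fold enrichment between 3.56 and 4.13.

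Libraries of different lines overlapped about as much as libraries of the same line. Measured in bp as the Jaccard index, the length shared divided by the length covered by either list, the overlap was 0.510 between the 2 A677G libraries and 0.520 between the 2 H689A/F667I libraries. Between lines it was 0.487 and 0.490 for A677G replicate 1 and 0.506 and 0.511 for A677G replicate 2. The highest value between lines was thus above the value within A677G.

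The A677G-only regions were 1.11% and the H689A/F667I-only regions 4.37% of the 70384 regions. Regions open in exactly 2 of the 4 libraries can also hold 1 library of each line, and these mixed pairs put the classes in proportion. With all peaks the mixed pairs held 864 and 947 regions with A677G replicate 1 and 1865 and 2039 with A677G replicate 2. The 783 A677G-only regions were fewer than each of them, and the 3073 H689A/F667I-only regions were more. With the top 38000 peaks the mixed pairs held 1030 to 1254 regions. The 1171 A677G-only regions (2.13% of 55100) then lay within that range, while the 1735 H689A/F667I-only regions (3.15% of 55100) lay above it. The pair of H689A/F667I libraries was the largest of the 6 pairs in both settings. Without A677G replicate 1, the library with the fewest peaks, there were 8045 A677G-only and 4584 H689A/F667I-only regions. A peak in 1 A677G library was then enough for its class, while the other class still needed 2. These counts therefore do not compare the classes.

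**Figure D1:**
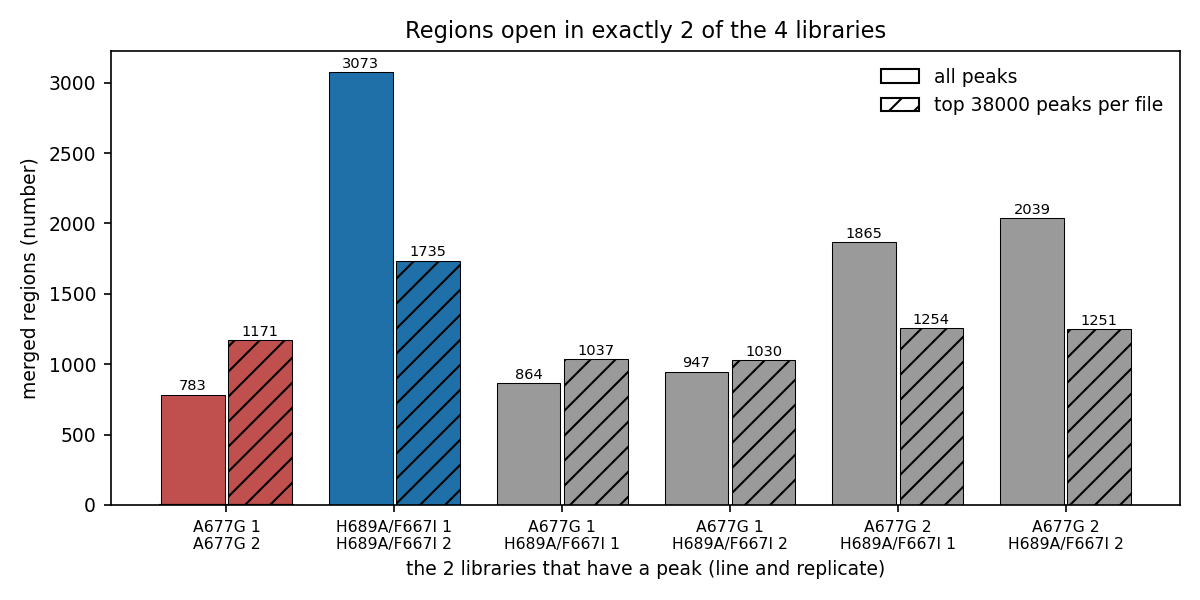
Number of merged regions (vertical axis) open in exactly 2 of the 4 libraries, for each pair of libraries (horizontal axis), with all peaks (plain bars) and with the top 38000 peaks per file (hatched bars). The A677G pair (red) rises from 783 to 1171 and the H689A/F667I pair (blue) falls from 3073 to 1735, while the 4 mixed pairs (grey) draw together.

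The 38000 limit acted differently on the lists. It removed 27 autosomal peaks from A677G replicate 1 and 8033 to 10416 from the other 3, so that the weakest peak kept had a −log10 p of 3.18 in A677G replicate 1, 3.96 in A677G replicate 2, and 4.17 and 4.24 in the H689A/F667I libraries. The first peak outside the limit had 3.18, 3.96, 4.17 and 4.24 in the same order. Of the 783 A677G-only regions, 517 (66.0%) belonged to the class in both settings, and these made up 44.2% of the 1171. The other 654 of the 1171 overlapped an H689A/F667I peak too weak to be among the top 38000. Of the 3073 H689A/F667I-only regions, 1405 (45.7%) belonged to the class in both settings, and these made up 81.0% of the 1735. The remaining 330 overlapped an A677G peak below the limit.

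Regions of both classes had weak peaks. Their −log10 p had medians of 4.41 and 4.36 in the A677G libraries for A677G-only regions and 4.54 and 4.64 in the H689A/F667I libraries for H689A/F667I-only regions, against 6.91 to 7.80 for regions open in all 4 libraries. The weaker of a region's 2 peaks reached a −log10 p of at most 9.98 in the A677G-only class and 9.17 in the H689A/F667I-only class, and was at least 3.06 in both. The median fold enrichment, the pileup over the local background as given by the authors, was 3.42 and 3.29 for A677G-only and 3.44 and 3.45 for H689A/F667I-only regions. Median width was 435 bp and 472 bp, compared to 954 bp for regions open in all 4. A region without a called peak is not a region without signal, and in bulk chromatin fewer cells with an open region and weaker opening in each cell cannot be told apart.

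**Figure D2:**
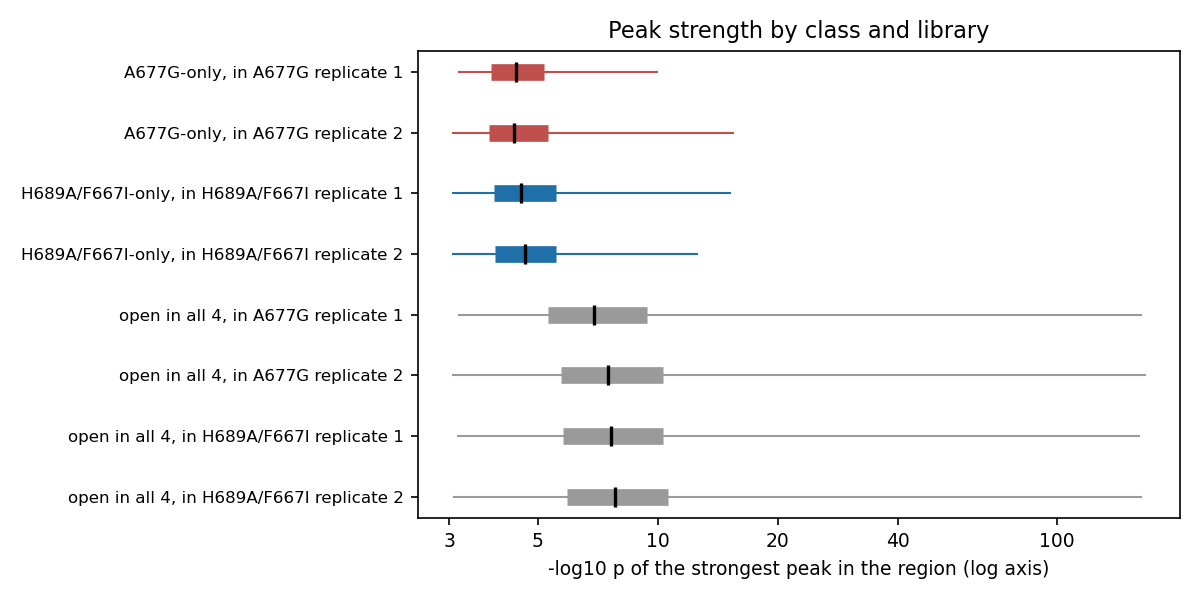
−log10 p of the strongest peak per region (horizontal log axis) by class and library, with the median (black tick), the middle 50% of regions (thick bar) and the range (thin line). The class regions have medians between 4.36 and 4.64, below the 6.91 to 7.80 of regions open in all 4 libraries, which reach 167.

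By the rule no class region overlaps a peak of the other line, so the distance to the closest such peak was taken. The closest peak of the other line lay under 500 bp away for 21 of 783 A677G-only regions (2.68%) and for 55 of 3073 H689A/F667I-only regions (1.79%). It lay under 5 kb away for 249 (31.8%) and 703 (22.9%). Its median distance was 10.0 kb and 11.6 kb. No other set of regions was measured for comparison.

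Most of the regions in both classes lay away from promoters, which were taken as 1 kb on either side of a start site of a protein-coding gene. With all peaks, 76 A677G-only regions (9.71%, 95% Wilson interval 7.83 to 12.0) and 243 H689A/F667I-only regions (7.91%, 7.01 to 8.92) were at promoters, compared to 45.9% of regions open in all 4 libraries. Regions open in 1 library of each line were at promoters in 8.05% (7.37 to 8.78), between the classes. With the top 38000 peaks the share was 15.5% (13.6 to 17.7) in the A677G-only class and 7.44% (6.29 to 8.77) in the H689A/F667I-only class. Of the 182 promoter regions of the A677G-only class in that setting, 54 belonged to it in both settings, and the others overlapped a weaker H689A/F667I peak. Among the regions in both settings, 10.4% of 517 A677G-only and 5.55% of 1405 H689A/F667I-only regions were promoters. The order of the 2 shares was not stable. It turned where a peak had to cover at least 50% of the region, to 14.4% in A677G-only and 15.7% in H689A/F667I-only regions. Leaving out a library lets 1 peak put a region in that line's class, and that class then had the lower share each time. The shares were 6.04% and 8.55% without A677G replicate 1 and 6.44% and 9.98% without A677G replicate 2. They were 10.2% and 5.96% without H689A/F667I replicate 1 and 11.0% and 5.99% without H689A/F667I replicate 2. These shares cannot decide the order. The intervals cover counting error only.

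**Figure D3:**
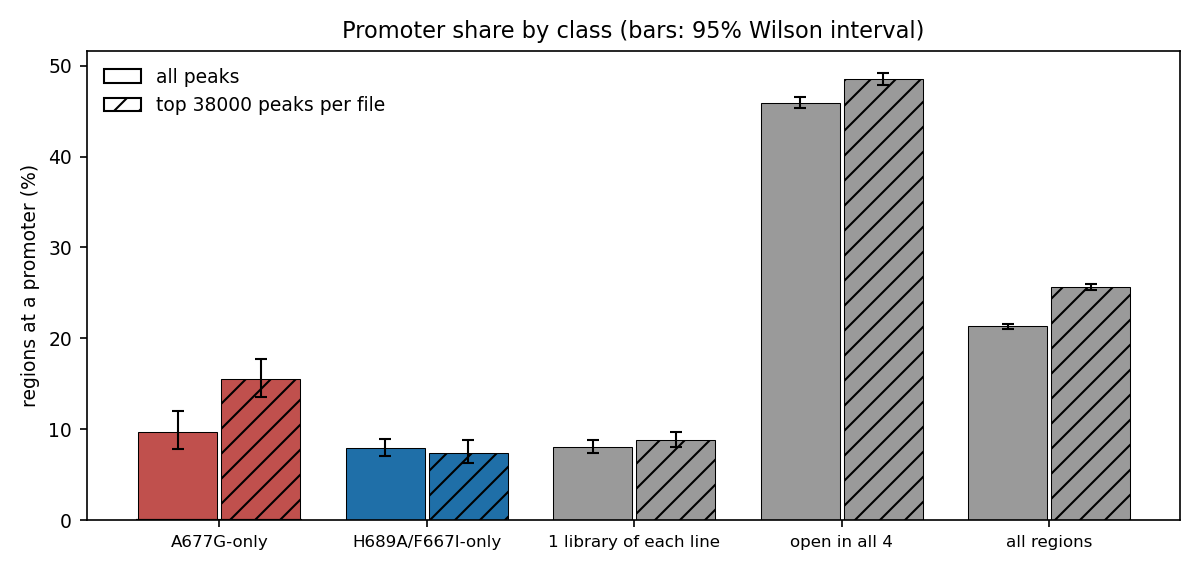
Share of regions at a promoter (vertical axis, %) for each class (horizontal axis), with all peaks (plain bars) and with the top 38000 peaks per file (hatched bars), and the 95% Wilson interval. The A677G-only share is 9.71% with all peaks and 15.5% with the top 38000, while the H689A/F667I-only share stays at 7.91% and 7.44%.

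With all peaks, the other places differed little between the classes. Introns held 42.4% of A677G-only and 39.3% of H689A/F667I-only regions, exons 7.28% and 8.14%, and intergenic sequence 40.6% and 44.6%. The shares over all regions were 33.9%, 7.13% and 37.7%. Outside promoters the median distance to a start site was 36.8 kb and 34.6 kb. Start sites of long non-coding RNAs away from protein-coding promoters held 16 A677G-only regions (2.04%) and 99 H689A/F667I-only regions (3.22%). They held 2.68% of regions open in 1 library of each line and 3.37% of all regions. Exons of pseudogenes held 11 (1.40%) and 26 (0.846%), against 1.26% of all regions. With the top 38000 peaks, intergenic sequence held 39.8% (37.0 to 42.6) of A677G-only and 45.8% (43.5 to 48.2) of H689A/F667I-only regions. Introns then held 38.5% and 39.2%. Among the regions in both settings the intergenic shares were 38.1% and 46.2%, and the intron shares 44.3% and 40.4%.

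The strongest A677G-only promoter was that of HBB, the gene of beta-globin, at chr11:5226485-5227074, where the region covered the start site and exon sequence. Its fold enrichment was 6.05 and 7.29 and its −log10 p 9.98 and 15.4 in A677G replicates 1 and 2. None of the 6 other libraries had a peak there, and the nearest H689A/F667I peak was 154 kb away. The lists hold no reads, so whether the fragments under this peak came from the chromosome was not tested. The next in strength was PXDNL, a peroxidasin-like gene, at chr8:51809389-51809620, with a fold of 4.93 and 4.96, which was also open in WT replicate 1 and Y641F replicate 2.

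Among transcriptional regulators, EGR3, an immediate early zinc finger factor (chr8:22693399-22693681), had a fold of 3.72 and 3.23 in the A677G libraries and peaks in both WT libraries and in Y641F replicate 2. Its nearest H689A/F667I peak was 0.733 kb away. TFDP2, a dimerization partner of E2F factors (chr3:142126217-142126504), had a fold of 4.28 and 4.04 and was open elsewhere only in WT replicate 1, with 5.14. ZNF839, a zinc finger gene (chr14:102319554-102319780), had 3.14 and 3.19 with peaks in the 2 WT libraries and none in Y641F.

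The remaining 5 named A677G-only promoters had folds between 3.06 and 4.13. TBCA, a tubulin folding cofactor, had a fold of 3.90 and 4.03, RAB30, a Golgi GTPase, 4.11 and 3.90, and WDFY3, an autophagy scaffold, 3.99 and 4.13. UBE2E1, a ubiquitin-conjugating enzyme, had 3.23 and 3.06 with an H689A/F667I peak 0.467 kb away, and FAM107B had 3.94 and 3.90. Of the 10 promoters, 4 were open in both WT libraries and 3 in any Y641F library. All 10 were A677G-only with the top 38000 peaks too.

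Outside promoters, the strongest A677G-only region lay in an intron of CCSER1 at chr4:90838687-90839136, on an exon of the processed pseudogene TMSB4XP8. It had a fold of 5.74 and 5.72 with a −log10 p of 9.12 and 9.31 and, like HBB, no peak in the 6 other libraries. Here too the source of the fragments was not tested, and reads of a processed pseudogene can be shared with its parent gene. An intron of KCNAB1, a beta subunit of voltage-gated potassium channels, had 5.09 and 5.26 in A677G and 5.48 and 6.17 in the WT libraries. The intergenic region nearest to TMEM247 had 4.35 and 4.30, that nearest to GIMD1 (chr4:106618927-106619464) 4.87 and 5.03, and an exon of MACROD1, an ADP-ribosylhydrolase (chr11:64148694-64148999), 3.47 and 3.28. The KCNAB1, TMEM247 and MACROD1 regions were open in both WT libraries.

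The strongest H689A/F667I-only promoters were those of DAP3, a subunit of the mitochondrial ribosome (chr1:155729096-155729429), and C5AR1, the receptor for complement C5a. DAP3 had a fold of 4.94 in each H689A/F667I library, and 4.02, 4.32 and 2.93 in WT replicates 1 and 2 and Y641F replicate 2. C5AR1 had 5.20 and 5.10, and 5.42, 4.21 and 3.47 in the same 3 libraries. Neither had a peak in A677G or in Y641F replicate 1, and at C5AR1 a WT library exceeded both H689A/F667I libraries.

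GYS1, the glycogen synthase of muscle (chr19:48970960-48971248), had 4.07 and 3.95, and TMEM63A, a mechanosensitive channel, 3.33 and 3.27. GIT1, a GTPase-activating scaffold of focal adhesions (chr17:29580277-29580674), had 4.20 and 4.28 and was open in all 4 WT and Y641F libraries. CDH18, a type II cadherin (chr5:19885509-19885763), had 5.41 and 4.57, and the IFIT1B promoter, which lies within LIPA (chr10:89378343-89378574), 4.83 and 5.73. The promoters of C4orf51, CCDC153 and CCDC198 had folds from 4.19 to 5.21. Of the 10 promoters, 9 were open in both WT libraries and 5 in any Y641F library, and all 10 kept their class with the top 38000 peaks.

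The 4 strongest H689A/F667I-only regions outside promoters were near FAM110B (chr8:57993062-57993315), ENAH, an actin regulator (chr1:225694140-225694463), and ZNF184, and in an intron of DIP2C (chr10:520495-520737). FAM110B had 4.16 in both libraries, ENAH 4.48 and 4.44, ZNF184 4.01 and 3.47, and DIP2C 4.58 and 4.64. ZNF184 was open in all 4 WT and Y641F libraries. The nearest A677G peak lay 0.636 kb from the ZNF184 region and 0.762 kb from that of FAM110B.

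**Figure D4:**
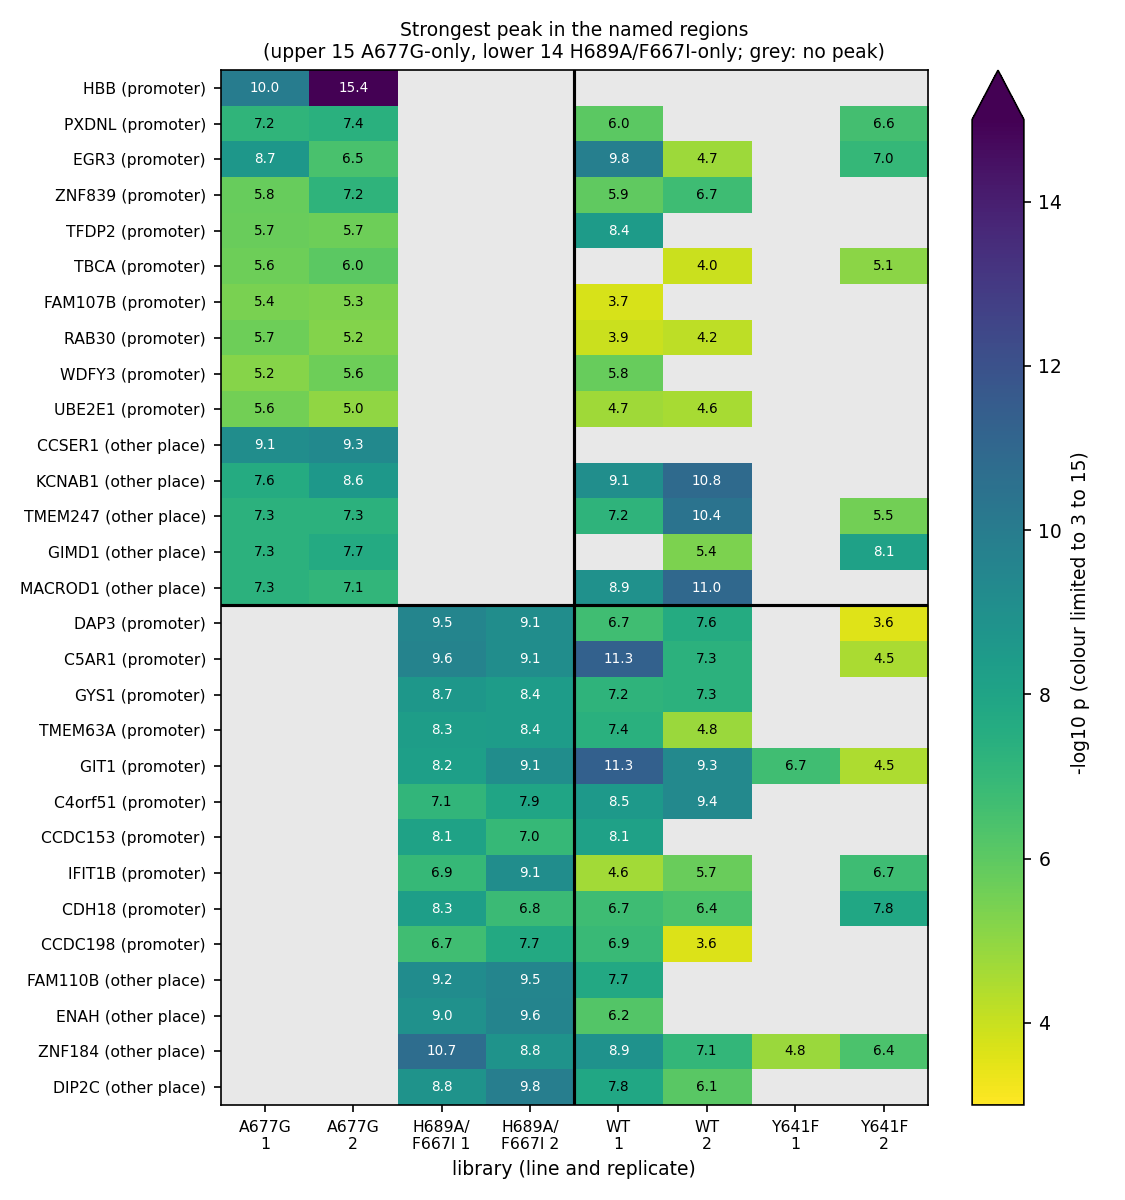
−log10 p of the strongest peak in the 29 named regions (rows) in the 8 libraries (columns), with grey where a library has no peak. HBB and CCSER1 have no peak outside A677G, while each of the 14 named H689A/F667I-only regions has a peak in WT replicate 1.

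The libraries of the other lines were independent of the classes. A677G-only regions were open in 61.4% (95% Wilson interval 58.0 to 64.8) and 63.3% (59.9 to 66.6) of cases in WT replicates 1 and 2, and H689A/F667I-only regions in 74.5% (72.9 to 76.0) and 72.0% (70.4 to 73.6). In Y641F replicates 1 and 2, 11.7% (9.68 to 14.2) and 26.7% (23.7 to 29.9) of A677G-only regions had a peak, and 8.75% (7.81 to 9.81) and 23.8% (22.3 to 25.3) of H689A/F667I-only regions. H689A/F667I-only regions were thus open more often in each WT library and less often in each Y641F library, with intervals that overlapped in Y641F. Regions open in 1 library of each line lay between the classes in all 4, at 71.2%, 69.4%, 10.6% and 24.5%. Regions open in all 4 libraries were open in 99.2%, 99.1%, 72.2% and 88.9%. Over all regions the shares were 68.21%, 67.23%, 31.73% and 44.03%. A677G-only regions lay below them in all 4, and H689A/F667I-only regions above them in WT and below them in Y641F. The WT lists held 62739 and 60420 peaks on chromosomes 1 to 22 and the Y641F lists 25423 and 35380. Whether these peak numbers set the level of the shares was not tested, so shares in WT cannot be set against those in Y641F.

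The order of the classes was the same with the top 38000 peaks. A677G-only regions were open in 78.1% and 78.2% in WT and 17.8% and 40.7% in Y641F, and H689A/F667I-only regions in 85.2% and 83.0% and in 12.2% and 30.1%. No interval of one class overlapped that of the other in these 4 libraries. Among the 517 and 1405 regions that held their class in both settings, the Y641F shares lay closer together. They were 11.8% and 29.2% for A677G-only against 9.54% and 27.4% for H689A/F667I-only regions in Y641F replicates 1 and 2. The WT shares of these regions were 67.7% and 68.7% against 83.6% and 81.7%. At a matched strength of the weaker peak, the WT shares kept this order in all strata: they were 53.8% and 56.2% against 64.5% and 61.7% at a −log10 p under 4, 67.3% and 70.6% against 80.4% and 77.5% from 4 to 5, and 78.0% and 75.2% against 85.9% and 84.9% from 5. The Y641F shares kept it in the lower strata and turned at 5 or more, where 8.26% and 28.4% of the 109 A677G-only regions and 9.90% and 29.8% of the 687 H689A/F667I-only regions were open. Regions of 1 library are not replicates of a line, so these differences were not tested.

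**Figure D5:**
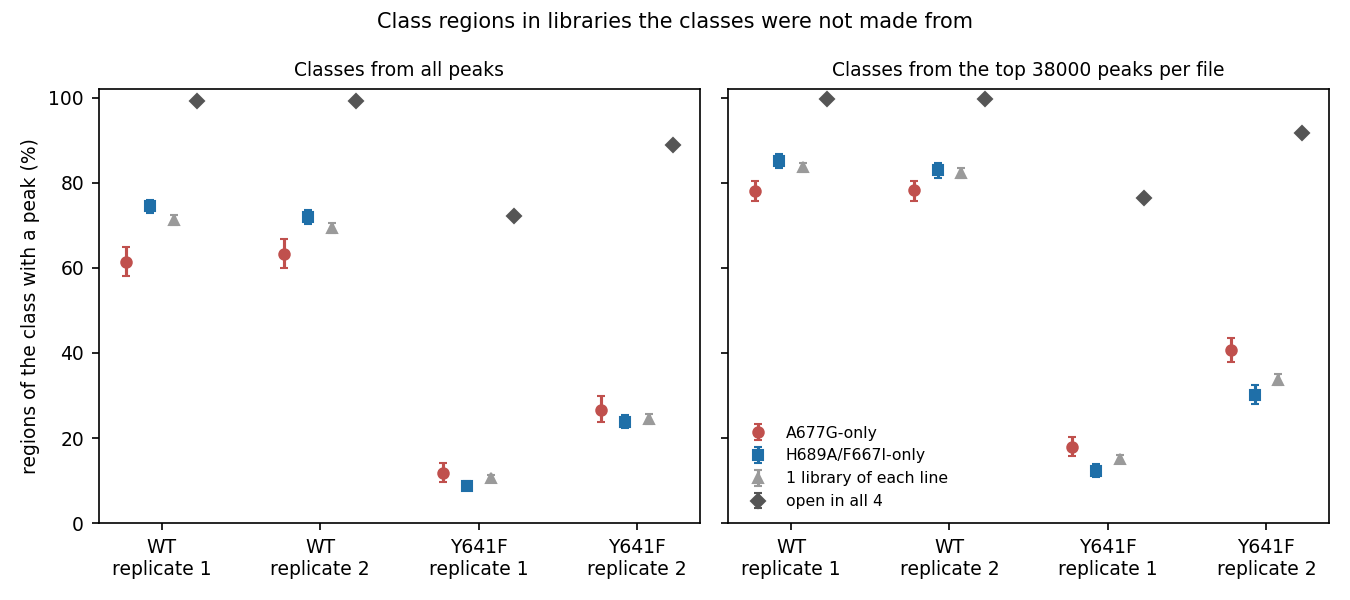
Share of regions with a peak (vertical axis, %) in each WT and Y641F library (horizontal axis), for classes from all peaks (left) and from the top 38000 peaks (right), with 95% Wilson intervals. In both panels A677G-only regions (red) lie below H689A/F667I-only regions (blue) in WT and above them in Y641F, with regions of 1 library of each line (grey) in between.

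Combinations of the other lines were counted as well. Regions with a peak in each WT library and none in Y641F made up 29.1% of the A677G-only and 40.3% of the H689A/F667I-only class. Regions open in both Y641F libraries and in neither WT library were rare, at 2 A677G-only (0.255%) and 12 H689A/F667I-only regions (0.390%), a share that was higher in the A677G-only class with the top 38000 peaks (0.427% against 0.173%). No peak in either WT or Y641F was found for 158 A677G-only regions (20.2%) and 369 H689A/F667I-only regions (12.0%). With all peaks, the same combinations made up 37.4%, 0.525% and 13.9% of regions open in 1 library of each line, in this order. Over all regions their shares were 18.1%, 0.195% and 23.6%.

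Counted by gene, 43 of 18765 protein-coding genes (0.229%) had promoter peaks in both A677G libraries and neither H689A/F667I library, and 136 (0.725%) the reverse. With the top 38000 peaks the counts were 111 (0.592%) and 67 (0.357%), so that the larger class depended on the number of peaks. Of the 43 genes, 26 were in the same class in both settings, and of the 136 genes 38. A gene can enter a class by its 1 kb window while the region itself is shared: a class region was present at 32 of the 43 and at 115 of the 136 promoters. Of all 18765 genes, 12366 (65.9%) were open in all 4 libraries and 4875 (26.0%) closed in all 4, and the counts of each gene list below stand beside these shares. Among the 43 genes, 21 were open in both WT libraries, and among the 136 genes 86.

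HOX genes are among those that Polycomb marks in development. Each class held 1 of 39 HOX genes (2.56%), against 0.229% (A677G-only) and 0.725% (H689A/F667I-only) of all genes. Each of these list shares thus rests on 1 gene. Of the 39, 21 were open in all 4 libraries. HOXC11 was A677G-only with a fold of 2.64 and 2.70, and HOXA5 was H689A/F667I-only with 1.98 and 2.07. Both were open in the 2 WT libraries and in neither Y641F library, and HOXA5 was closed in all 4 with the top 38000 peaks.

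Of 168 other developmental transcription factors, 108 were open in all 4 libraries and none was A677G-only. The H689A/F667I-only class held 7 (4.17%, against 0.725% of all genes), namely FOXA2, FOXE1, FOXK1, MEIS3, PAX1, SOX8 and SOX30. MEIS3, a homeodomain cofactor of HOX proteins, had the strongest peaks, with a −log10 p of 6.42 and 4.86. The other 6 genes had a −log10 p from 3.42 to 5.64. Only MEIS3 of these 7 stayed H689A/F667I-only with the top 38000 peaks, and NKX2-2, a neural homeodomain factor, joined it. They were 2 of 168 (1.19%, against 0.357% of all genes). FOXD3, a neural crest factor, was then A677G-only (0.595%, against 0.592% of all genes). None of the 7 was open in a Y641F library, and SOX30 and FOXA2 were each open in 1 WT library.

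Of 48 WNT ligands, receptors and antagonists, 29 were open in all 4 libraries. WNT6 and WNT8A were H689A/F667I-only (4.17%, against 0.725% of all genes). The WNT6 promoter had a fold of 5.10 and 4.85 in H689A/F667I. A677G had peaks of 5.04 and 5.02 that began 1024 and 1037 bp from the start site, just beyond the 1 kb window, so the WNT6 region was open in all 8 libraries. WNT8A had 3.19 and 4.04 and a WT peak in replicate 2, and it was no longer H689A/F667I-only with the top 38000 peaks.

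Of 63 cadherins and other adhesion genes, CDH11, CDH20 and CHL1 (4.76%, against 0.229% of all genes) were A677G-only, with folds from 3.11 to 4.09, and CNTNAP1 was H689A/F667I-only. No A677G-only region overlapped the promoter windows of these 3 genes. With the top 38000 peaks CDH11 and CNTNAP1 left their classes, and CDH20, CHL1 and CDH3 were A677G-only (4.76%, against 0.592% of all genes). GABRA2, a GABA-A receptor subunit, had 4.66 and 3.23 and was the only A677G-only gene of 41 glutamate and GABA receptors (2.44%, against 0.229%). It left the class with the top 38000 peaks, where GRIN3A was A677G-only instead (2.44%, against 0.592% of all genes). GRIN3A was open in all 4 libraries with all peaks. KCNJ13, an inward rectifier, had 3.16 and 4.30 and was the only A677G-only gene of 93 potassium channels (1.08%, against 0.229% of all genes). KCNH3 and KCNK3 joined it with the top 38000 peaks (3.23%, against 0.592%), although both had H689A/F667I peaks with folds of 2.58 to 2.88. Of 53 clustered protocadherins, 47 were closed in all 4 libraries and PCDHA11 was H689A/F667I-only (1.89%, against 0.725% of all genes). PCDHA11 lost that call with the top 38000 peaks, and PCDHGA11 was then H689A/F667I-only (1.89%, against 0.357%).

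Of 68 collagens and integrins, 1 was A677G-only (1.47%, against 0.229% of all genes) and 1 H689A/F667I-only (1.47%, against 0.725%). ITGA10, an integrin alpha subunit that binds collagen, was A677G-only with 3.91 and 3.40 and had no peak in any WT or Y641F library. COL5A2, a fibrillar collagen chain, was H689A/F667I-only with 3.29 and 3.43. Among the top 38000 peaks no gene of this list was H689A/F667I-only, COL5A2 included. ITGA10, COL22A1 and COL6A6 were then A677G-only (4.41%, against 0.592%). Of 82 cytosolic ribosomal proteins, 75 were open in all 4 libraries and RPL19 was A677G-only (1.22%, against 0.229% of all genes). RPL19 had 2.80 and 2.98 in A677G and peaks in all 4 WT and Y641F libraries. Of 246 ZNF genes on chromosome 19, 179 were open in all 4 and ZNF426 was H689A/F667I-only (0.407%, against 0.725%). ZNF426 was closed in all 4 with the top 38000 peaks. None of 389 olfactory receptors was in either class, and 380 were closed in all 4.

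Several lists had no member in a class, and at the shares over all genes (0.229% and 0.725%) lists of this size would hold few or none. All 12 PRC2 subunits, all 13 enzymes of H3K27 and H3K36 methylation and all 8 cyclin-dependent kinase inhibitors were open in all 4 libraries, and 19 of 22 PRC1 subunits. All 20 AP-1 and immediate early genes were likewise open, among them EGR3, whose promoter window also held other peaks. Of 108 genes given by the study as common targets of its gain-of-function mutants, 106 were open in all 4 libraries and none was in a class. The study chose those genes partly on these libraries. Axon guidance genes (70), kidney lineage regulators (27), neuronal and adrenal identity genes (28), nuclear oxidative phosphorylation genes (81) and MHC class I presentation genes (21) also had no member in a class.

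The classes were spread over all chromosomes. A677G-only regions were 20.3% of the regions in both classes together, and this share was highest on chromosome 18 at 31.7% (26 of the A677G-only class, 56 of the other, interval 22.6 to 42.4), whereas chromosome 19 had the lowest, 11.3% (15 against 118, 6.95 to 17.8). With the top 38000 peaks the share was 40.3% in all and 54.5% (41.5 to 67.0) on chromosome 18, again the highest. Chromosome 19 then had 36.8% and chromosome 15 the lowest share, 33.7%.

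A677G-only regions lay a median of 2049 kb apart and H689A/F667I-only regions 473 kb. No 2 Mb window held more than 4 A677G-only regions. The densest windows of the H689A/F667I-only class held 11 regions, at chr1:228000001-230000000 and at chr6:26000001-28000000, where the large histone gene cluster lies. These windows held 107 and 130 regions of any kind and 0 and 1 A677G-only region. Within genes, PCDH9, a protocadherin of neurons that spans 928 kb of chromosome 13, held 8 H689A/F667I-only and 1 A677G-only of its 95 regions outside promoters. GPC5 and GPC6, neighbouring glypicans on the same chromosome, each held 5 and 1, of 65 and 64 regions. FHOD3, a formin of muscle on chromosome 18, was the only gene with 3 A677G-only regions, beside 1 H689A/F667I-only region among 29. These genes were picked for the highest counts among 1571 genes with a class region in the body. Of the 1571, 106 held both classes. Over all regions, promoters included, 1.11% were A677G-only and 4.37% H689A/F667I-only.

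By sequence, the classes resembled regions open in 1 library of each line. In the central 300 bp, median GC content was 50.0% in A677G-only, 48.0% in H689A/F667I-only and 49.0% in mixed regions, against 59.3% in regions open in all 4 libraries. Outside promoters the medians were closer, at 49.3%, 47.3%, 48.3% and 51.3%. At promoters they were 55.7%, 58.7%, 60.5% and 67.7% in the same order.

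The motifs searched on both strands were TGANTCA for AP-1, CCANNAGGG as a CTCF-like core, GGAATG for TEAD, AGATAA for GATA factors, GGGCGG for SP/KLF, CCGGAAG for ETS, CAGACA for SMAD, CAGCAGG for ZIC, CCATAAA as a HOXB9-like site and ATGCAAAT for POU factors. Matches to different motifs may overlap. AP-1 was matched in 13.7% of A677G-only, 13.1% of H689A/F667I-only and 13.5% of mixed regions, against 8.81% of regions open in all 4 and 11.5% of all regions. Outside promoters, which make up 45.9% of the regions open in all 4, the AP-1 shares were 14.0%, 13.4% and 13.9%, close to the 12.9% of regions open in all 4 and the 13.3% of all regions. The CTCF-like core was matched in 9.83%, 10.5% and 10.9% (all regions 9.66%), TEAD in 15.6%, 16.9% and 17.5% (all regions 15.6%) and GATA in 15.5%, 17.4% and 17.2% (all regions 14.1%). SP/KLF, a motif of CpG-rich promoters, was matched in 15.7%, 13.1% and 12.5%, against 42.5% of regions open in all 4 and 23.2% of all regions. Outside promoters these shares were 13.4%, 10.8% and 10.2%, against 20.8% and 12.6%. For ETS, SMAD and ZIC the classes had 2.17% and 1.69%, 25.2% and 23.3%, and 17.4% and 16.5% (all regions 3.78%, 21.7% and 15.3%). Outside promoters ETS was matched in 2.12% and 1.48% (all regions 1.82%) and SMAD in 26.2% and 23.7% (all regions 23.9%). ZIC was matched there in 17.8% and 16.3% (all regions 16.2%) and GATA in 15.8% and 18.1% (all regions 16.6%). The HOXB9-like site was matched in 4.85% and 5.14% (all regions 4.51%). POU was matched in 0.894% (0.434 to 1.83) of A677G-only and 1.76% (1.35 to 2.29) of H689A/F667I-only regions (all regions 1.34%).

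In the 26072 regions open in all 4 libraries the fold enrichment itself could be compared. By limma on log2 fold, centred on each library's median, 0 regions (0%) passed an adjusted p of 0.05 in either direction, and the lowest adjusted p was 0.727. At an unadjusted p under 0.05 limma gave 864 regions with a higher fold in A677G and 856 with a higher fold in H689A/F667I, 6.60% of those tested. The log2 difference, A677G minus H689A/F667I, had a median of 0.01, quartiles of -0.09 and 0.11, and extremes of -0.79 and 0.66. Its 95% interval per region had a median half-width of 0.29. By place, the median difference was 0.02 in promoters, -0.0021 in exons, -0.0026 in introns and -0.0069 in intergenic regions. The fold is a ratio to the local background at the authors' peak and not a read count, so these values do not replace a test of counts. The fit left out the class regions, and centring removed any shift shared by all regions of a library. The result therefore does not show that the lines are equally open.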

How the data were processed

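Per the study and the submitters' processing notes, reads were trimmed (Trim Galore 0.6.5) and aligned to GRCh38 (BWA 0.7.17), duplicates were dropped, and each library's peaks were called by the authors with MACS2 2.2.7.1. The shifting of reads for the transposase and the read depth were not given in the sources used here. The deposited lists hold, for each broad peak, a fold enrichment (a ratio to local background), a −log10 p and −log10 q, and a score that was not used. No listed peak had a −log10 q below 1.

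Groups were taken from the sample titles. Peaks on chromosomes 1 to 22 were merged where they shared at least 1 bp, and the top 38000 were ranked over the whole file, with ties by fold and file order, before the autosomes were taken. Genes and places came from GENCODE 44, with the order promoter (within 1 kb), exon, intron, intergenic. A region's value in a library was that of its strongest peak. A gene was open in a library with a peak within 1 kb of any of its protein-coding start sites. Sequences were read from the GRCh38 reference.

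The named regions were, for each class, the 10 promoter regions and the 5 other regions with the highest −log10 p in the weaker of their 2 libraries, together with members of 22 gene lists whose promoter fell in a class. Of these, 1 region of the H689A/F667I-only class, 1 marker gene and some sequences are not reported here. No region open in all 4 libraries passed the threshold to be named. The members, lists and tests were chosen with earlier results of these data known. Library totals were compared by exact permutation tests, and log2 fold by limma 3.58.1 (trend, Benjamini-Hochberg) in R 4.3.3. This takes the place of the study's test of read counts. The other steps used Python 3.11.15, pandas 2.3.3 and scipy 1.17.1. The scripts were checked on simulated data. Wilson intervals are at 95% and cover counting error only.

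The alternatives were equal peak numbers (top 38000, or 36744 on chromosomes 1 to 22), a −log10 q of at least 5, merging of peaks under 500 bp apart, a cover of at least 50% of the region, promoter windows of 500 bp and 2 kb, other scalings and values for limma, a replicate block and leaving out each library. The classes of the top 38000 peaks in the other lines were added after the data were seen.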

Additional observations from a re-analysis of the deposited data

Results flagged for a closer look

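Chromosome X was outside the rule for the classes. Formed there in the same way, the classes held 44 A677G-only and 89 H689A/F667I-only regions of 2486. On chromosomes 1 to 22 they held 783 and 3073 of 70384. The same 4 libraries and the same rule gave both sets of counts, so chromosome X is not separate support for the classes.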

How the results depend on the processing

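Of 86 values recomputed under the alternatives, 51 stayed within the limits set for them and 35 moved. Equal numbers of peaks raised the A677G-only class and lowered the other: 1171 and 1735 regions with the top 38000 peaks and 1183 and 1729 with 36744 on chromosomes 1 to 22. The A677G-only promoter share was then 15.5% in both settings. A −log10 q of at least 5 left 239 A677G-only, 1047 H689A/F667I-only and 8016 shared regions, with promoter shares of 32.6% and 30.9%. A cover of at least 50% gave 16201 shared regions and promoter shares of 14.4% and 15.7%. Promoter windows of 500 bp and 2 kb gave 6.38% and 10.8% for H689A/F667I-only regions.

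The order of the classes was not stable. The A677G-only promoter share was the higher one with all peaks but the lower one at a cover of at least 50%. It was also lower without A677G replicate 1 (6.04% against 8.55%) and without A677G replicate 2 (6.44% against 9.98%). Without either H689A/F667I library it was the higher one (10.2% against 5.96% and 11.0% against 5.99%). The line left with 1 library thus had the lower share each time, so leaving out a library cannot decide this order. By region the A677G-only class was the smaller one in every setting with all 4 libraries. Without A677G replicate 1 it was the larger (8045 against 4584 regions), but 1 peak then put a region in it and the other class needed 2. By gene the A677G-only class was the smaller with all peaks (43 against 136) and the larger with the top 38000 (111 against 67).

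Leaving out a library puts a class on 1 library of that line, and the counts then ran from 1828 to 8045 for A677G-only and from 4584 to 11434 for H689A/F667I-only regions. The promoter shares ran from 6.04% to 11.0% and from 5.96% to 9.98%, and the regions open in all remaining libraries from 27120 to 29894. Without A677G replicate 2 the A677G-only count was 4754. The log2 ratio of peak number ran from -0.35 to -0.06 and that of covered length from -0.42 to -0.16.

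With the top 38000 peaks, the shares of A677G-only regions open in WT and Y641F were 78.1%, 78.2%, 17.8% and 40.7%, and those of H689A/F667I-only regions 85.2%, 83.0%, 12.2% and 30.1%.

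By limma, 0 shared regions passed in either direction with all 4 libraries under every setting tried. The fits that left out a library also gave 0, with a lowest adjusted p of 0.156 without H689A/F667I replicate 1, but there 1 line has a single library, which is assumed to vary like the other line, so they say nothing on stability. With a replicate block the count stayed at 0 and 0, with 958 and 922 regions at an unadjusted p under 0.05. Same-numbered libraries did not deviate together in fold (r = -0.0035 over 26072 regions), so the fold in these regions gave no sign of pairing by number. Pairing in other respects, such as peak number, was not tested. The cause of the moves was not tested. Read depth is unknown, so differences in depth between the libraries could not be set beside these counts.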
